A study of Mus musculus with 6 samples.

Results

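The genes described here are 10 signaling genes that act with or directly downstream of Toll-like receptors (TLRs): the endosomal TLR chaperone gene *Unc93b1*, the TIR-domain adaptor genes *Myd88*, *Tirap*, *Ticam1* and *Ticam2*, the IL-1 receptor-associated kinase genes *Irak1*, *Irak2*, *Irak3* and *Irak4*, and *Traf6*. They were chosen by name, with earlier results of these data known. All 10 of them were found among the 54232 gene identifiers of the deposited files. The samples were CNS monocytes sorted by FACS as GFP-CD45+CD11b+Ly6ChiLy6G- cells at the peak of EAE, a mouse model of multiple sclerosis, and comprised 3 WT and 3 *Ifnar1*-/- libraries. Both groups came from mixed bone marrow chimeras, in which lethally irradiated GFP+ recipients were given equal numbers of WT (CD45.1) and *Ifnar1*-/- (CD45.2) bone marrow cells 6 to 7 weeks before immunization. All chimeras were treated with 30000 IU of rIFN-β daily, so that both groups carried the treatment and no library came from untreated mice. IFNAR1 is a chain of the type I IFN receptor, and the comparison asks which transcripts differed between monocytes with and without it in treated mice. The knockout was carried by every cell of the *Ifnar1*-/- donors and not by monocytes alone, and the donors also differed in their CD45 variant, so the receptor and the strain of the donor cannot be told apart. The labels do not give the age or the sex of the mice. The study describes as many recipients as there were libraries in each group, but the labels do not tie libraries to mice or say which WT and *Ifnar1*-/- libraries shared a mouse, so that p-values measure the spread between libraries, which may be technical. The names of the deposited files carry a number that recurs in both groups, and its meaning is not given in the sources used here.

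TLRs recognize microbial products at the cell surface or in endosomes, and pass the signal on through cytoplasmic TIR domains. MyD88 serves nearly all TLRs and the receptors for IL-1 and IL-18, with TIRAP (Mal) as a bridging adaptor, and assembles IRAK4, IRAK1 and IRAK2 into a complex that activates TRAF6 and then NF-κB. TRIF, the product of *Ticam1*, serves TLR3 directly and TLR4 through TRAM, the product of *Ticam2*, and leads to IRF3 activation and type I IFN. UNC93B1 carries the nucleic acid-sensing TLRs, including TLR7 and TLR9, from the endoplasmic reticulum to endosomes, and IRAK3 (IRAK-M) is a brake found mainly in monocytes and macrophages.

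The promoter of *Myd88* held an interferon-stimulated response element (ISRE) core, a DNA motif bound by IRF9-containing complexes and by IRFs, and its sequence is shown because no other window of the adaptor and IRAK genes held such a match. Promoter windows from 250 bases before to 50 bases after the annotated start were taken from RefSeq (GRCm38.p6) and covered 8 of the 10 genes with 11 windows, with none for *Unc93b1* and *Ticam2*. The ISRE core was searched on both strands as GAAA, then NN for any bases, then GAAA again, and 3.44% of all 32851 promoter windows of this length held it. For comparison, the promoter of *Cxcl10*, a chemokine gene downstream of TLRs and IFN, is shown with its own match. The bases lie before the start, on the minus strand of chr9:119340019-119340088 for *Myd88* and of chr5:92349063-92349132 for *Cxcl10*, and capitals mark the ISRE core.
Myd88: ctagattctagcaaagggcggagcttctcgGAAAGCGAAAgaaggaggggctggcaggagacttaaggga
Cxcl10: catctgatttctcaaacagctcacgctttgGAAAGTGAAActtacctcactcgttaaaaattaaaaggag
The match lay from 40 to 31 bases before the start in *Myd88* and from 213 to 204 bases before it in *Cxcl10*. A GAS motif, searched as TTCNNNGAA and present in 8.30% of all windows, was also found once among the adaptor and IRAK genes, again in *Myd88*, where it shared 3 bases with the ISRE core. A κB motif, present in 8.46% of all windows, was found among them in the windows of *Irak1*. The window of *Cxcl10* also held κB matches, among them from 159 to 150 and from 104 to 95 bases before the start. The window of *Myd88* held no κB match. Of the pathway genes described below as higher in WT monocytes, *Irf7*, *Tlr9*, *Rnf31*, *Usp25* and *Pik3ap1* had no ISRE core match. Whether each of these genes had a window was not recorded. The motif matches describe letters in the windows and do not show binding.

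The *Ifnar1* gene itself was examined first. Its gene-level count separated the groups little, with 153, 126 and 111 normalized CPM in WT libraries 1, 2 and 3 against 110, 102 and 109 in *Ifnar1*-/- libraries (log2 fold change 0.28, SE 0.15, adjusted p = 0.360, edgeR quasi-likelihood test). Normalized CPM are read counts divided by the TMM-scaled library size (CPM). The files also give, for each gene and library, the mean length of its transcripts weighted by their estimated abundance. For *Ifnar1* this length was 3552, 3198 and 3307 bases in the WT and 2219, 2284 and 2471 bases in the *Ifnar1*-/- libraries. All WT libraries lay above all *Ifnar1*-/- libraries by this measure (p = 0.1 in a two-sided exact permutation test, which cannot go lower with 3 libraries in each group). The longest protein-coding transcript of *Ifnar1* has 3909 bases, and the transcript mix estimated for the *Ifnar1*-/- libraries thus differed from that of the WT libraries in the direction of shorter transcripts. The exons that the reads covered were not analysed here.

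The libraries carried the transcripts of monocytes. *Itgam* (CD11b) was at 313, 406 and 371 TPM in WT and 338, 461 and 307 TPM in *Ifnar1*-/- libraries, and *Ccr2*, the chemokine receptor gene of inflammatory monocytes, was at 143, 223 and 186 TPM in WT and 339, 244 and 243 TPM in *Ifnar1*-/- libraries. Every WT library was thus below every *Ifnar1*-/- library for *Ccr2*, which was not called (log2 fold change -0.62 from counts, adjusted p = 0.143, edgeR quasi-likelihood test). TPM express a level per transcript length, scaled to the same total in each library. *Ly6c2*, a gene of the sorted surface marker Ly6C, was itself higher in WT monocytes, with 1057, 1628 and 1376 against 287, 611 and 562 TPM (log2 fold change 1.40 from counts, adjusted p = 0.00957, edgeR quasi-likelihood test). Of the 10 monocyte markers, 5 were higher on average in WT, and *Ly6c2* was the 1 that was called. *Ly6g*, the neutrophil marker excluded by the sort, was at most 2.94 TPM. Other neutrophil transcripts were present and uneven, with a summed level of the 9 marker genes of 340, 1464 and 4089 TPM in the WT and 1641, 1475 and 4213 TPM in the *Ifnar1*-/- libraries, and *S100a9* as the most abundant. WT library 1 thus stood apart with few neutrophil transcripts, and libraries 3 of both groups with many. The 9 T cell markers summed to 41.4, 28.2 and 55.3 TPM in WT and 22.0, 9.30 and 12.3 TPM in *Ifnar1*-/- libraries, with *Thy1* the most abundant, all 9 higher on average in WT and none passing the test below. Of the markers of B cells and neural cells, *Pax5* and *Mog* were listed at 0 in every library. The part of these other cells in the results was not tested. In bulk samples, fewer cells of a type and less RNA per cell cannot be told apart. Ribosomal RNA took 12.3, 14.2 and 17.6% of the counts in WT and 22.7, 15.1 and 19.7% in *Ifnar1*-/- libraries. Mitochondrial transcripts took 13.0, 14.7 and 18.4% against 23.6, 15.9 and 20.4%. Mitochondrial ribosomal RNA was counted in both shares, so they hold many of the same reads and are not separate signs. Both shares were higher in the *Ifnar1*-/- library of each number, although the groups overlapped, and their part in the results was not tested. Total expected counts ranged from 4531782 to 7321380 per library, and the adaptor and IRAK genes received from 55 counts (*Ticam1*) to 4852 counts (*Unc93b1*) in a library, so that all 10 passed the filter on low counts.

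Per transcript length, *Unc93b1* was by far the most abundant of the 10 genes, and *Ticam1* the least. *Unc93b1* averaged 281 ± 32.7 TPM (SD, n = 3) in WT and 235 ± 43.0 TPM (SD, n = 3) in *Ifnar1*-/- monocytes, and its lowest library (197 TPM) lay above the highest library of any other of these genes. *Irak2* and *Myd88* followed, with means over all 6 libraries of 78.4 and 67.2 TPM and overlapping ranges. *Irak2* exceeded *Myd88* in 5 of 6 libraries, so that these neighbors were not clearly ordered. *Myd88*, in turn, lay above *Irak1* (mean 37.7 TPM) without overlap. *Irak1* and *Traf6* (mean 29.4 TPM) were ordered in 5 of 6 libraries. Below them came *Irak3* with 21.2 TPM and *Irak4*, the kinase at the head of the cascade, with 13.8 TPM, and this order held in 6 of 6 libraries although the ranges overlapped. The remaining adaptors formed the bottom of the order, with means of 8.03 TPM for *Ticam2*, 6.68 TPM for *Tirap* and 4.45 TPM for *Ticam1*. Among these, *Ticam2* exceeded *Tirap* in 4 of 6 libraries, so that their levels were not distinguished, whereas *Tirap* exceeded *Ticam1* in 6 of 6.

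**Figure D1:**
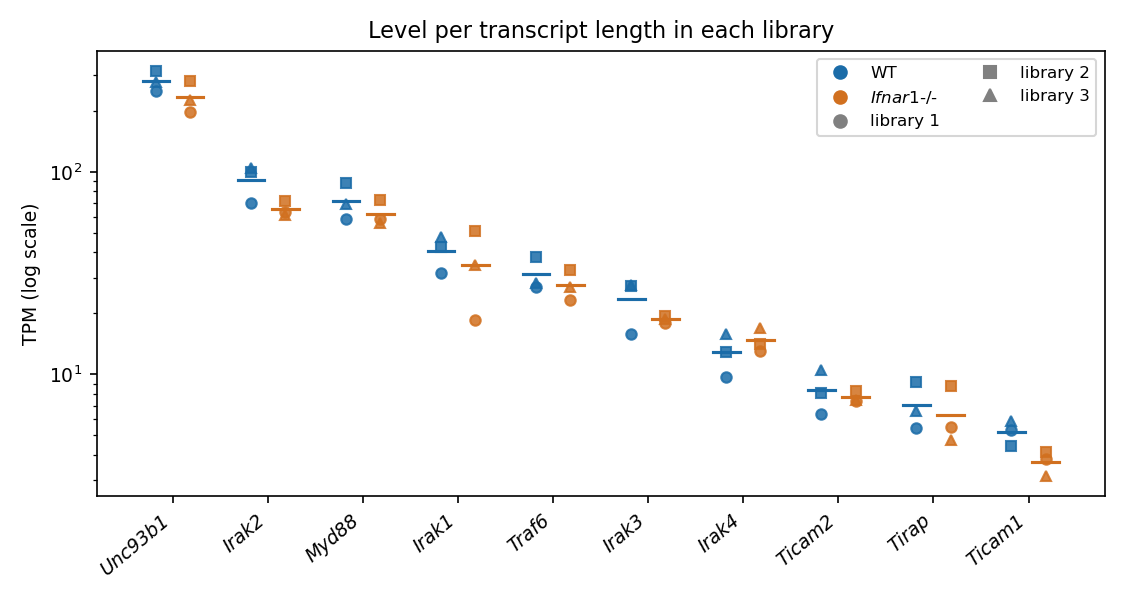
Level of each gene per transcript length (TPM, log scale) in every library, ordered by the mean over 6 libraries, with short lines at the group means. *Unc93b1* lies between 197 and 314 TPM and *Ticam1* between 3.14 and 5.87 TPM.

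None of the 10 genes was differentially expressed between WT and *Ifnar1*-/- monocytes. With the thresholds of the study's methods, 0.05 for the adjusted p and 1.5 for the fold change, the edgeR quasi-likelihood test called 0 of 10, against 2.13% of the 11254 genes tested (1.67% higher and 0.462% lower in WT). DESeq2 and limma-voom called 0 of 10 as well. At an unadjusted p under 0.05 the number was 1, *Ticam1*, against 17.8% of all tested genes. Log2 fold changes (WT over *Ifnar1*-/-) ran from -0.05 to 0.54, with 9 of 10 above 0 and a median of 0.22, beside a median of -0.01 and 48.2% above 0 over all tested genes. With offsets for GC content and gene length, the median of the 10 was 0.11, with 8 above 0. WT library 1 held the highest normalized CPM of 6 of the 10 genes, and of 24.2% of all tested genes. The 95% intervals of the log2 fold change lay within 1.5-fold in both directions for 6 of the 10 genes and within 2-fold for 9, so that for those 9 a 2-fold difference lay outside the interval.

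*Unc93b1* (ENSMUSG00000036908, chromosome 19, 3935186 to 3949340) measured 690, 597 and 520 normalized CPM in the WT and 424, 549 and 487 in the *Ifnar1*-/- libraries. The groups overlapped, since WT library 3 lay below *Ifnar1*-/- library 2. The log2 fold change was 0.31 (SE 0.17, 95% interval -0.07 to 0.68, adjusted p = 0.372, edgeR), and a 1.5-fold higher level in WT lay within the interval. With the GC and length offsets the log2 fold change was 0.10. Of the receptors that depend on this chaperone, *Tlr9* rose in WT monocytes, with 140, 98.0 and 81.5 against 31.3, 40.2 and 31.8 normalized CPM (log2 fold change 1.63, adjusted p = 0.00199, edgeR). *Tlr7* had 121, 113 and 99.9 against 76.4, 67.8 and 77.1 normalized CPM, a log2 fold change of 0.59 that did not pass the threshold (SE 0.14, adjusted p = 0.0620, edgeR) but did so in DESeq2 (adjusted p = 0.0118). When the replicate number was added as a block, *Tlr7* passed neither in edgeR (adjusted p = 0.0944) nor in DESeq2 (adjusted p = 0.1025). It did pass with the block and the GC and length offsets together (adjusted p = 0.0398, edgeR), and was called in 4 of the 19 alternative analyses. Whether the change of either receptor gene differed from that of *Unc93b1* was not tested.

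*Myd88* (ENSMUSG00000032508, chromosome 9, 119335934 to 119341411), the adaptor gene with the ISRE core shown above, had 139, 137 and 120 normalized CPM in the WT and 121, 126 and 115 in the *Ifnar1*-/- libraries. The values of WT library 3 fell among those of the *Ifnar1*-/- libraries. For *Myd88* the log2 fold change came to 0.13 (SE 0.13, adjusted p = 0.653, edgeR), and the upper end of the 95% interval was 0.43, a 1.35-fold higher level in WT. The log2 fold change was 0.05 with the offsets and 0.22 without WT library 3. *Cxcl10*, with its own ISRE core and κB matches, is described below, and it rose 2.02-fold in the same libraries. *Myd88* overlaps *Slc22a14* on the same strand and *Acaa1a* on the opposite strand, among which reads could have been divided. *Tirap* (ENSMUSG00000032041, chromosome 9, 35184551 to 35200291), which recruits MyD88 to the membrane, had 21.5, 21.04 and 19.0 normalized CPM in WT libraries against 18.9, 24.2 and 17.3. *Ifnar1*-/- library 2 was the highest of all 6 and *Ifnar1*-/- library 3 the lowest, and the log2 fold change of 0.03 (SE 0.18, adjusted p = 0.964, edgeR) changed sign with the GC and length offsets, to -0.14.

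*Ticam1* (ENSMUSG00000047123, chromosome 17, 56269319 to 56276786), the gene of TRIF, had the largest fold change of the 10. It had 20.9, 12.1 and 16.0 normalized CPM in the WT and 12.4, 11.5 and 10.1 in the *Ifnar1*-/- libraries, from 55 to 147 counts in a library. WT libraries 1 and 3 were above all others, and WT library 2 fell below *Ifnar1*-/- library 1. The log2 fold change of 0.54 (SE 0.23, 95% interval 0.03 to 1.04) measured an unadjusted p of 0.0393 and an adjusted p of 0.251 (edgeR). Without WT library 1 it was 0.32, without WT library 2 it was 0.72, and with the GC and length offsets 0.30. *Ticam2* (ENSMUSG00000056130, chromosome 18, 46557291 to 46574533), the gene of the TLR4-specific adaptor TRAM, had 19.1, 16.4 and 21.1 against 17.9, 16.9 and 18.2 normalized CPM. Both the highest and the lowest of these values came from WT libraries, and the difference on the log2 scale was 0.09 (SE 0.17, adjusted p = 0.818, edgeR). It was 0.20 with the offsets or without WT library 2, and 0.03 without WT library 3. *Ticam2* overlaps *Tmed7* on the same strand, which had 128 to 152 normalized CPM in WT libraries. *Tlr3*, whose product signals through TRIF alone, was rare, with 10.7, 9.14 and 7.11 against 3.36, 3.22 and 5.15 normalized CPM (log2 fold change 1.21, adjusted p = 0.0657, edgeR). *Tlr4*, whose product uses both MyD88 and TRIF, had 149, 171 and 127 against 254, 174 and 166 normalized CPM, a log2 fold change of -0.41 (adjusted p = 0.299, edgeR).

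**Figure D2:**
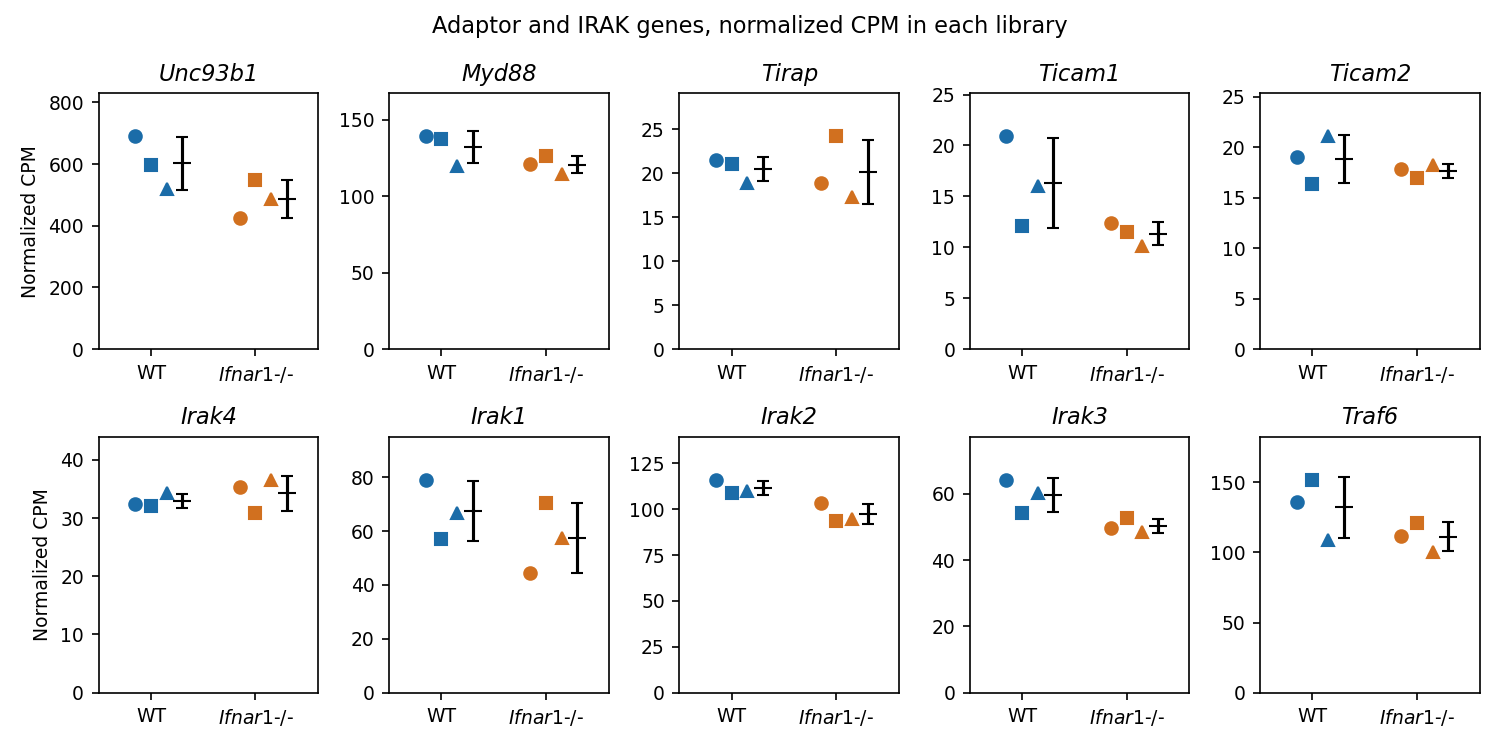
Normalized CPM of the 10 genes in every library, with circles, squares and triangles for libraries 1, 2 and 3, and the mean ± SD of each group in black (n = 3). The groups overlap in 8 of the panels, and *Irak2* and *Irak3* are the panels in which every WT library lies above every *Ifnar1*-/- library.

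None of the 4 kinase genes was called. *Irak4* (ENSMUSG00000059883, chromosome 15, 94543643 to 94581815), which phosphorylates the other kinases of the complex, was the single gene with a value below 0. It had 32.4, 32.1 and 34.4 normalized CPM in the WT and 35.3, 30.8 and 36.6 in the *Ifnar1*-/- libraries, with a log2 fold change of -0.05 (SE 0.14, 95% interval -0.37 to 0.26, adjusted p = 0.880, edgeR). *Irak1* (ENSMUSG00000031392, chromosome X, 74013914 to 74023918) measured overlapping groups, with 79.1, 57.0 and 66.5 against 44.3, 70.3 and 57.4 normalized CPM. *Ifnar1*-/- library 1 was the lowest for *Irak1*, and in that library ribosomal RNA took 22.7% of the counts, the highest share of the 6. The log2 fold change of *Irak1* was 0.24 (SE 0.19, 95% interval -0.18 to 0.67, adjusted p = 0.555, edgeR), and 0.10 without this library. It was 0.12 without WT library 1, 0.43 without *Ifnar1*-/- library 2 and 0.09 with the GC and length offsets.

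*Irak2* and *Irak3* were the genes in which the groups did not overlap. *Irak2* (ENSMUSG00000060477, chromosome 6, 113638467 to 113695026), which sustains late TRAF6 activation, had 116, 109 and 110 normalized CPM in the WT and 103, 93.5 and 94.7 in the *Ifnar1*-/- libraries. The gap between the groups was small, and the log2 fold change was 0.20 (SE 0.13, 95% interval -0.08 to 0.49, adjusted p = 0.451, edgeR), and 0.12 with the offsets. *Irak3* (ENSMUSG00000020227, chromosome 10, 120141648 to 120202130), the inhibitory member, had 64.3, 54.2 and 60.2 against 49.8, 52.7 and 48.4 normalized CPM. The log2 fold change of *Irak3* was 0.25 (SE 0.13, 95% interval -0.05 to 0.54, adjusted p = 0.361, edgeR). For both genes the two-sided exact permutation test gave p = 0.1, the smallest value possible, and 11.1% of all tested genes had every WT library above every *Ifnar1*-/- library, beside which 2 of 10 was counted here without a test. *Traf6* (ENSMUSG00000027164, chromosome 2, 101678429 to 101701669), the ubiquitin ligase on which the kinases converge, had 136, 152 and 109 normalized CPM in the WT and 112, 121 and 100.4 in the *Ifnar1*-/- libraries. WT library 3 was below 2 of the *Ifnar1*-/- libraries, and the difference on the log2 scale was 0.25 (SE 0.16, adjusted p = 0.448, edgeR). It was 0.16 without WT library 2 and 0.40 without WT library 3.

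**Figure D3:**
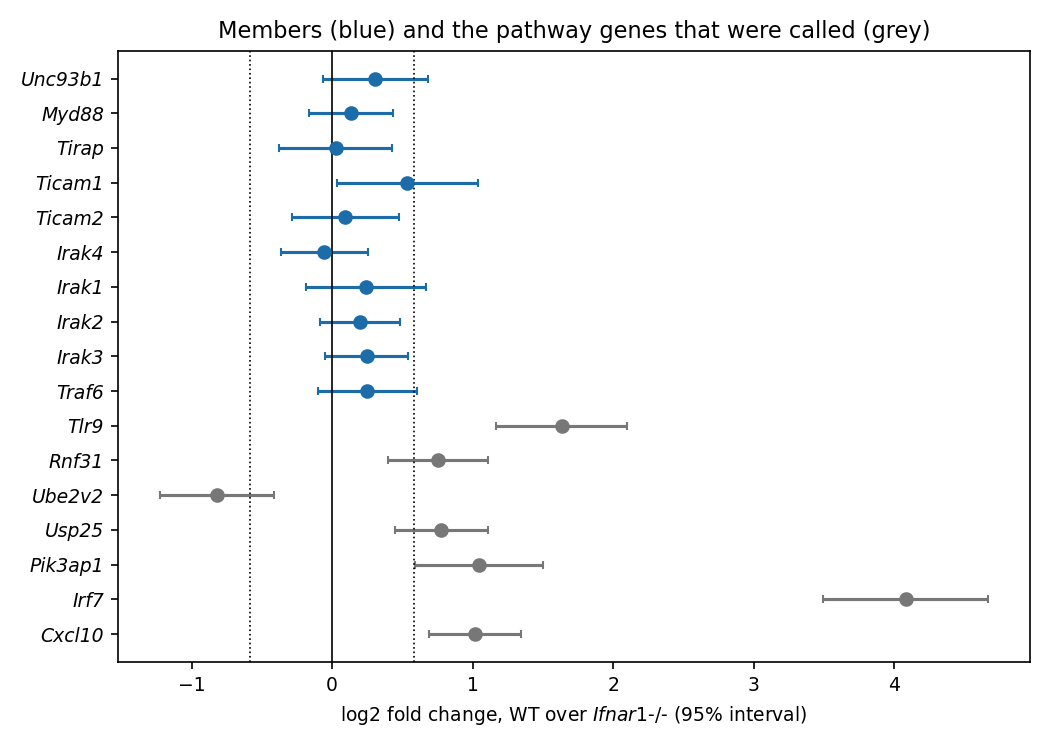
Log2 fold change (WT over *Ifnar1*-/-) with its 95% interval from edgeR, for the 10 adaptor and IRAK genes (blue) and the 7 called genes of the pathway lists (grey), with dotted lines at 1.5-fold. The blue points lie between -0.05 and 0.54, and *Irf7* lies at 4.08.

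Transcript length was examined as a readout other than the amount of a gene, since several of these genes have transcripts that differ in what they encode. *Ticam1* has 1 transcript in the files, and the other 9 genes have from 2 (*Ticam2*) to 22 (*Irak1*). In *Irak2* the abundance-weighted length was 1369, 1321 and 1282 bases in the WT and 1598, 1499 and 1527 bases in the *Ifnar1*-/- libraries. Every WT library was thus below every *Ifnar1*-/- library, with a mean length in WT of 85.9% of that in *Ifnar1*-/- monocytes (p = 0.1 in the same exact permutation test). The annotation lists 9 transcripts of *Irak2*, 3 of them protein-coding with 3196, 2974 and 1734 bases. Since the mean length in every library was below the shortest of these 3, shorter transcripts carried part of the estimated *Irak2* signal in both groups, and the annotated transcripts below that length, of 542 to 688 bases, are all of types other than protein-coding. The number of genes with non-overlapping lengths was 1 of 9, and 10.6% of the 8985 tested genes with lengths that varied had them, so the share was near the background.

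The shorter lengths in WT entered the level of *Irak2* per length. The deposited TPM of *Irak2* was 70.1, 99.5 and 104 in the WT and 63.2, 71.7 and 61.3 in the *Ifnar1*-/- libraries, and the difference on the scale of log2(TPM + 1) was 0.46, compared with 0.20 from counts. By TPM, WT library 1 fell among the *Ifnar1*-/- libraries, whereas by normalized CPM it was the highest. In *Myd88* the lengths were 1877, 1791 and 1972 bases in the WT and 1973, 1944 and 1973 bases in the *Ifnar1*-/- libraries, with WT library 3 within the range of the *Ifnar1*-/- libraries. *Irak1* ranged from 1569 to 2262 bases, with library 1 of each group the longest of its group. *Unc93b1* and *Ticam2* varied least, from 2043 to 2157 and from 2244 to 2318 bases.

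**Figure D4:**
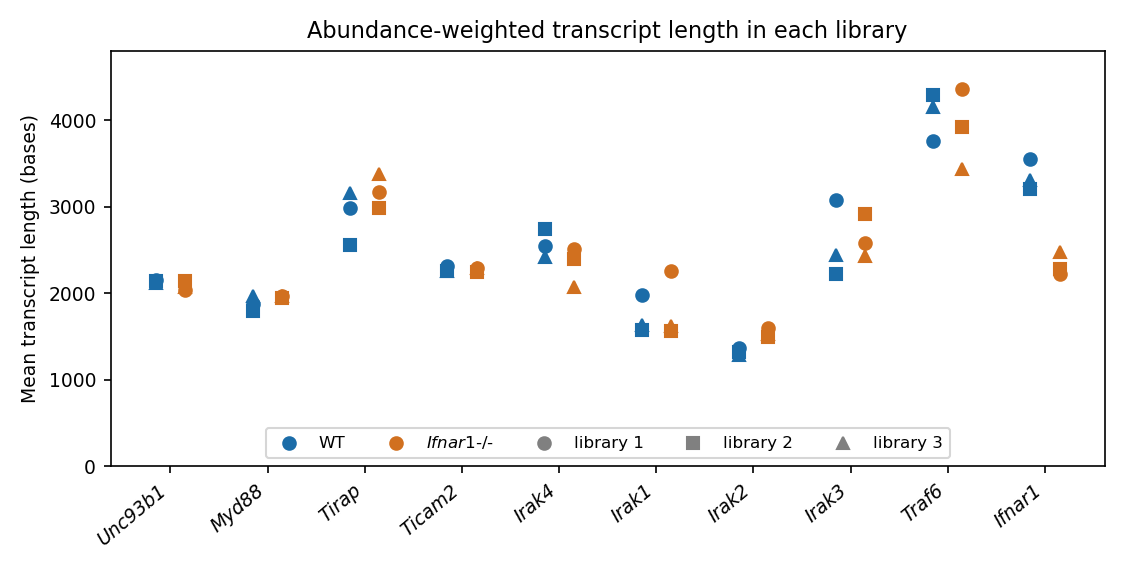
Abundance-weighted mean transcript length (bases) in each library for the 9 genes with several transcripts and for *Ifnar1*, with circles, squares and triangles for libraries 1, 2 and 3. The groups separate in *Irak2*, from 1282 to 1369 against 1499 to 1598 bases, and in *Ifnar1*, from 3198 to 3552 against 2219 to 2471 bases.

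The genes around the adaptors were described by 7 lists of receptors, co-receptors, downstream enzymes, inhibitors, transcription factors and targets, with 111 genes in all, of which 102 were tested. In the edgeR test 6 were higher and 1 was lower in WT monocytes, beside 1.67% higher and 0.462% lower among all tested genes, whose median log2 fold change was -0.01. Of 11 TLR genes tested, *Tlr9* was called, and the list had a median log2 fold change of 0.13. With DESeq2, with GC and length offsets, or with no filter on low counts, 3 TLR genes were called, and with the replicate block the number was 1 in edgeR, 1 in DESeq2 and 2 in edgeR with the offsets. *Tlr2*, the most abundant TLR gene by TPM, had 419, 402 and 366 against 396, 296 and 373 normalized CPM and was not called (adjusted p = 0.653, edgeR). None of the 16 genes for co-receptors and receptor trafficking was called, with a median of 0.23, although DESeq2 called 2 of them, DESeq2 with the replicate block 1 and edgeR with no filter on low counts 1. Of these, *Ctsb*, a cathepsin gene, was the most abundant, with 1885, 1216 and 1325 against 960, 949 and 1038 normalized CPM (log2 fold change 0.59, SE 0.19, adjusted p = 0.156, edgeR). None of the 7 tested genes of the IL-1 receptor family, whose signaling members use the same MyD88 and IRAK complex, was called, and the median was 0.02. *Il1r2*, the gene of a decoy receptor that does not signal, was the most abundant of them, with 70.01, 138 and 99.3 against 50.2, 122 and 87.5 normalized CPM.

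Downstream of the adaptors, 2 of 23 kinase and ubiquitin enzyme genes were called, and they moved in opposite directions. With the replicate number as a block, neither was called, with an adjusted p of 0.0835 for *Rnf31* and 0.0779 for *Ube2v2* in edgeR and of 0.120 and 0.186 in DESeq2. *Rnf31*, which encodes HOIP, the catalytic subunit of the linear ubiquitin assembly complex, rose in WT monocytes, with 51.1, 41.2 and 39.9 against 22.8, 27.1 and 28.9 normalized CPM (log2 fold change 0.75, SE 0.16, adjusted p = 0.0424, edgeR). *Rnf31* overlaps *Irf9* on the same strand, and *Irf9* had a log2 fold change of 0.50 (adjusted p = 0.0842, edgeR), so that reads could have been divided between them. *Ube2v2*, a partner of the ubiquitin-conjugating enzyme UBC13, fell from 26.7, 23.9 and 24.6 in *Ifnar1*-/- libraries to 11.5, 16.4 and 15 normalized CPM in WT libraries (log2 fold change -0.82, SE 0.18, adjusted p = 0.0498, edgeR). *Tbk1*, the kinase gene of the TRIF branch, was the most abundant uncalled gene of this list and had 81.2, 122 and 95.6 against 82.0, 97.4 and 92.9 normalized CPM (adjusted p = 0.727, edgeR).

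Among 18 inhibitors tested, 2 rose in WT monocytes. *Pik3ap1* (BCAP), a TIR-domain adaptor that links TLRs to PI3K, had 252, 177 and 155 against 81.4, 113 and 89.2 normalized CPM (log2 fold change 1.04, SE 0.21, adjusted p = 0.0275, edgeR), with WT library 1 the highest. *Usp25*, a deubiquitinase gene, had 274, 213 and 236 against 133, 152 and 137 normalized CPM (log2 fold change 0.78, SE 0.15, adjusted p = 0.0245, edgeR, and 0.0521 with the replicate block). *Usp25* lies 14.4 Mb from *Ifnar1* on chromosome 16, where an effect of the receptor and of donor DNA linked to the knockout cannot be told apart. *Ube2v2* is on chromosome 16 as well, but farther away, from 15552077 to 15595773, with *Ifnar1* from 91485238 to 91507441. *Lyn*, the most abundant uncalled inhibitor gene, was at 551, 467 and 432 against 583, 430 and 478 normalized CPM (log2 fold change -0.04, adjusted p = 0.937, edgeR).

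Of 12 transcription factor genes, *Irf7* was the 1 called. The log2 fold changes of the list ran from 0.01 to 4.08 with a median of 0.39, beside a median of -0.01 and 48.2% above 0 over all tested genes, and no test was made of the list. *Irf7*, which acts with MyD88 downstream of TLR7 and TLR9, had 721, 413 and 393 against 25.8, 32.7 and 31.8 normalized CPM (log2 fold change 4.08, adjusted p = 1.6e-05, edgeR). It overlaps *Phrf1* on the opposite strand, which had a log2 fold change of 0.56 (adjusted p = 0.147, edgeR). *Fos*, the most abundant of the rest by TPM, varied within both groups, from 407 to 1269 normalized CPM in WT and from 306 to 981 in *Ifnar1*-/- libraries. Of 15 tested cytokine and chemokine targets, *Cxcl10* rose in WT monocytes, with 118, 127 and 102 against 56.6, 51.7 and 63.1 normalized CPM (log2 fold change 1.02, SE 0.15, adjusted p = 0.00444, edgeR). The number of targets called was 4 with no filter on low counts and 4 with the replicate block and the GC and length offsets. It was 2 with the replicate block alone, in edgeR as in DESeq2. *Il1b*, the most abundant target that was not called, had 354, 217 and 279 against 483, 250 and 372 normalized CPM (log2 fold change -0.38, SE 0.25, adjusted p = 0.463, edgeR). *Il10*, *Il12b*, *Il23a* and *Ifnb1* did not pass the filter, with at most 7 counts in a library, and differences in them were not detectable at this depth.

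**Figure D5:**
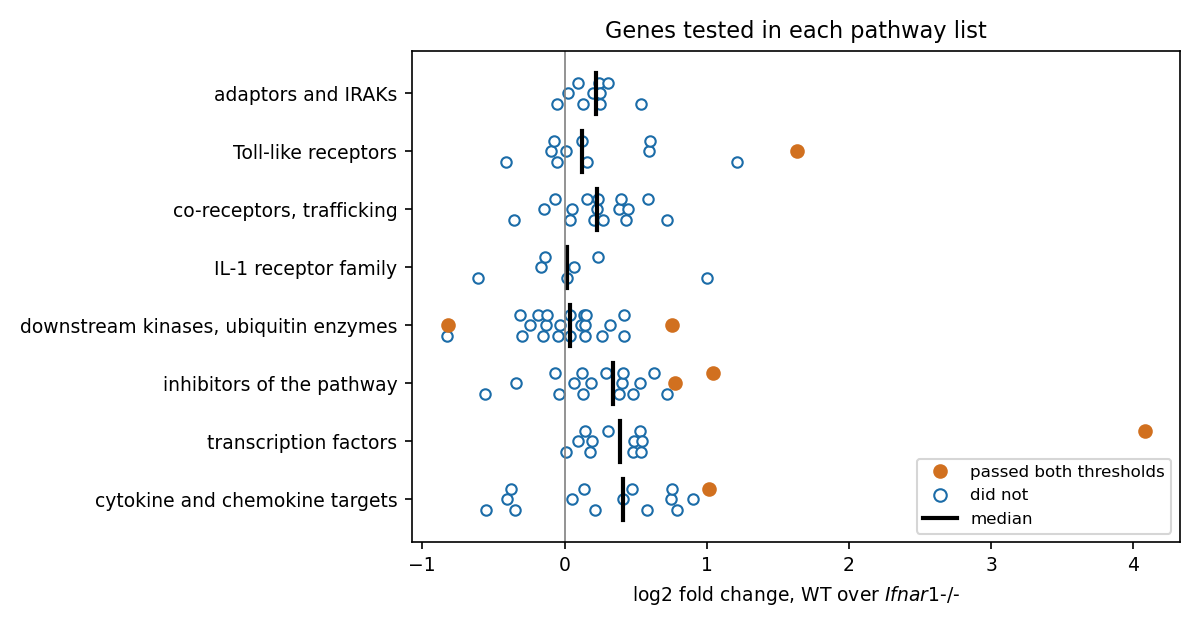
Log2 fold change (WT over *Ifnar1*-/-) of every tested gene in the adaptor and IRAK group and in 7 pathway lists, with filled points for genes that passed both thresholds and bars at the medians. Filled points number 2 among downstream enzymes and 2 among inhibitors, 1 each among TLRs, transcription factors and targets, and 0 in the other groups.

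The calls among pathway genes differed in how well they held. *Tlr9*, *Irf7* and *Cxcl10* were called in all 19 alternative analyses. *Pik3ap1* was called in 14 of them, *Usp25* in 11, *Rnf31* in 7 and *Ube2v2* in 5. These counts include the main test without its fold threshold, which by design calls every gene that the main test called. Without *Ifnar1*-/- library 1, or without *Ifnar1*-/- library 3, 3 of the pathway genes were higher in WT, and without any one library none was lower.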

How the data were processed

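Per the labels and the study's methods, RNA of the 6 sorted populations was made into stranded libraries and sequenced, and the deposited gene files were written by RSEM 1.2.31 after alignment to GRCm38 with STAR 2.6.0c, as named in the submitters' processing notes. The sources name different library kits, and the strand setting of the counting is not given in the sources used here. The deposited expected counts are estimated by the authors with RSEM and are not normalized. The deposited TPM and FPKM were scaled by the authors for the transcript length estimated in each library, so that a change in estimated length alters them. FPKM were not used.

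Expected counts were rounded and tested with edgeR 4.0.16 (R 4.3.3, TMM, filterByExpr with a minimum count of 10, quasi-likelihood test, Benjamini-Hochberg adjustment over 11254 genes). Calls required 0.05 or less for the adjusted p together with a 1.5-fold difference or more. Levels between genes were compared by TPM only, and 3 counts corresponded to 0.41 to 0.662 CPM per library. Of 54232 identifiers, 54165 matched GENCODE M21 by identifier, the source of coordinates (GRCm38) and transcripts. Alternatives were DESeq2 1.42.0, limma 3.58.1 (voom, and log2(TPM + 1) or log2(TPM + 0.1)), RLE scaling, other filters, GC and length offsets, a replicate block and leaving out each library. A further alternative kept the main test and dropped its fold threshold. The count test was tested on simulated data.

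The 10 genes and all lists were chosen with earlier results of these data known. Genes named were the 10, *Ifnar1*, and from each list up to 4 called genes with the smallest p and the most abundant gene by TPM not called, and from each marker list the most abundant gene and markers at 0. *Tlr3*, *Tlr4*, *Tlr7*, *Itgam*, *Ccr2*, *Ly6c2*, *Ly6g* and the overlapping genes were added after their values were seen. The other marker lists were led by *Lyz2* (monocytes), *Cd79b* (B cells, summed level at most 1.53 TPM), *Gzma* (NK cells, at most 14.9 TPM), *Tcf4* (plasmacytoid dendritic cells, 13.9 to 26.1 TPM), *Itgax* (conventional dendritic cells, 19.5 to 39.0 TPM) and *Mbp* (neural cells, 11.3 to 15.7 TPM). Every WT library lay above every *Ifnar1*-/- library in the sums of T cell, B cell and neural markers. The microglia list and 1 further marker are not reported here.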

Additional observations from a re-analysis of the deposited data

How the results depend on the processing

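The number of adaptor and IRAK genes called was 0 in each of the 19 alternatives. *Tirap* changed sign, to -0.14 with GC and length offsets, -0.13 with these offsets and the replicate block, and over a range of -0.06 to 0.19 when single libraries were left out, and *Irak4* ranged from -0.11 to 0.01 in the latter. The cause was not tested. The other 8 genes kept their sign in every alternative. Over all genes, 188 were called higher and 52 lower in WT. The numbers were 314 and 105 with DESeq2, 610 and 262 with all genes kept whatever their counts, 112 and 16 with log2(TPM + 1), 111 and 13 with log2(TPM + 0.1), and 110 to 204 and 7 to 41 when single libraries were left out. With GC and length offsets 29 were lower, and 86.7% of the called genes were higher in WT instead of 78.3%. This share was 87.5% with log2(TPM + 1), 89.5% with log2(TPM + 0.1), and 95.3% without WT library 3. Of the pathway genes, 6 were called higher, and this number was 10 with DESeq2, 14 with all genes kept, 3 with either TPM scale and 3 to 4 when single libraries were left out. The 1 pathway gene called lower, *Ube2v2*, was not called (0) with RLE scaling, either TPM scale, GC and length offsets, either fit of the replicate block, the block with offsets, without mitochondrial and ribosomal RNA genes, or without any one library (0 to 0).

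Replicate numbers are shared between the groups, but deviations from the group means correlated by 0.0872, 0.0265 and 0.289 for the same number, and WT library 1 correlated better with *Ifnar1*-/- library 2 (0.101). The labels do not say whether WT and *Ifnar1*-/- libraries of one number came from the same chimeras, and these correlations do not settle it. With the block, the adjusted p of the 10 genes ran from 0.255 to 0.937 (edgeR). With the replicate block 182 genes were higher and 38 lower, and 5 pathway genes were higher in WT, among them 2 cytokine and chemokine targets in place of 1. *Usp25* (adjusted p = 0.0521), *Rnf31* (adjusted p = 0.0835) and *Ube2v2* (adjusted p = 0.0779) were not called by edgeR with the block. The block with DESeq2 gave 212 and 52, and the block with offsets 238 and 45. The lowest count behind any of the 10 genes was 55 in a library (*Ticam1*), and their SE ran from 0.13 to 0.23 on the log2 scale. No alternative was added after seeing the data.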
